A study of Mus musculus with 96 samples.

Results

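C3H/HeJ is an inbred mouse strain, and its liver was compared on the control diet with the livers of 4 other inbred strains, namely CBA/J, DBA/2J, C57BL6/J and 129S1/SvImJ. The 8 C3H/HeJ control mice were chosen by their sample titles, as were the 32 control mice of the other strains, 8 in each, so that 40 of the 96 arrays of the series entered this contrast. Each of the 4 other strains had equal weight in the mean against which C3H/HeJ was set. The remaining arrays hold the calorie-restricted mice of the same strains and both diets of B6C3F1/J, the cross of C57BL6/J and C3H/HeJ. Their levels are given below only where named. All 96 arrays entered the filter, the choice of probe set for a gene, and the shared estimate of spread behind each SE and call. All mice were male, came from the same supplier at 6 weeks of age, lived singly, and ate 84 kcal per week of a purified diet until 8 weeks of age. Control mice then stayed on a control diet and restricted mice had 25% fewer calories until tissue was taken at 22 weeks, after 14 weeks on the diets. No gene was altered by design, and the groups differ in their whole inbred genomes. Gene levels are log2 signals from Affymetrix arrays with 1 mouse on each array, and a difference is C3H/HeJ minus the mean of the 4 strains on the log2 scale with its SE. Signals of different genes rest on different probes, so levels are compared only within a gene.

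The liver makes most plasma proteins, bile acids and lipoproteins, clears drugs and hormones, and switches between storing and burning fat. Inbred strains carry fixed alleles at every locus, so a level shared by all mice of a strain and by no other strain is one form in which strain variation appears in RNA. C3H/HeJ is known for a defective lipopolysaccharide receptor gene, for a low-activity allele of beta-glucuronidase, for low type I deiodinase activity, and for a high rate of liver tumours in males. It shares part of its ancestry and its H2 haplotype of the major histocompatibility complex with CBA/J.

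After filtering, 14813 genes were tested. The C3H/HeJ control arrays had median log2 signals between 6.3 and 6.57, with a mean of 6.41, while the strain means of the other inbreds lay between 6.46 and 6.79. This difference of -0.22 had an adjusted p of 0.021 in a two-sided permutation test of the 40 arrays. C3H/HeJ replicates correlated with each other at 0.909 to 0.936 across genes, and no 2 arrays of the inbred control groups held identical values. In 2 C3H/HeJ control arrays, replicates 2 and 8, the mean of 10 skeletal muscle markers was above 9, as it was in 2 arrays of 129S1/SvImJ, and replicate 8 also had the highest 3' to 5' difference of the Gapdh control probe sets, at 0.25 against -0.43 to -0.34 in the other 7. The labels give no scan or processing batch, so a batch that follows the strains cannot be told apart from strain.

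A total of 1819 genes, or 12.3% of those tested, passed an adjusted p of 0.05, with 1051 (7.1%) higher and 768 (5.18%) lower in C3H/HeJ. The median difference over all genes was -0.02. Among the calls, 214 higher and 296 lower genes differed by at least 2-fold. In 63 of the higher and 257 of the lower genes, or 5.99% and 33.5%, the lesser of the 2 means lay below the mean array median of 6.71, where the size of a fold change is uncertain. With each array centred on its 75th percentile, 47.8% of calls were higher, against 57.8% as reported. Without the 4 inbred control arrays of highest muscle marker signal, including C3H/HeJ replicates 2 and 8, 1062 genes were called, 582 higher and 480 lower, an alternative chosen after seeing the data.

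In 23 genes, 0.155% of those tested, the 8 C3H/HeJ values all lay above or all below the 32 values of the other inbreds. C3H/HeJ was above in 14 and below in 9. Hbegf, which encodes a heparin-binding ligand of the epidermal growth factor receptor, stood furthest apart. Its signal ran from 9.989 to 10.85 in C3H/HeJ with a median of 10.41, and from 3.346 to 7.393 with a median of 6.843 in the 4 other strains. The groups did not overlap, and the difference was 3.87 ± 0.31 (SE), with an adjusted p of 3.16e-18. The mean of the other strains, 6.53, lay below the array median, so the size of the fold is uncertain. A second Hbegf probe set also passed, at 3.3 ± 0.36. Nme7, a nucleoside diphosphate kinase family member, ran from 10.11 to 10.38 (median 10.26) in C3H/HeJ and from 7.99 to 9.29 (median 8.733) elsewhere. Its C3H/HeJ mice therefore spanned far less than the gap to the nearest other mouse, and the difference was 1.53 ± 0.17 (adjusted p = 3.01e-11). Lgr4, the R-spondin receptor that strengthens Wnt signalling, ran from 11.69 to 12.24 against 10.19 to 11.46, a difference of 1.13 ± 0.15 (adjusted p = 3.36e-09).

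Kdm5d, a histone demethylase gene on the Y chromosome, was at 9.546 to 9.724 in C3H/HeJ and at 7.534 to 8.7 in the other strains, a difference of 1.38 ± 0.17 (adjusted p = 1.02e-09). A second Kdm5d probe set, at 0.59 ± 0.29, was not called. Stat5b, the transcription factor that carries the growth hormone signal to the genome, was at 9.935 to 10.4 (median 10.19) against 8.863 to 9.894 (median 9.482), a difference of 0.70 ± 0.14 (adjusted p = 0.00014). A second Stat5b probe set, at 8.49 against 8.42, differed by 0.07 ± 0.18 and was not called. Med1, a Mediator subunit through which nuclear receptors contact the transcription machinery, differed by 0.64 ± 0.13. Both were apart by narrow margins: the lowest C3H/HeJ value and the highest other value were 9.935 and 9.894 for Stat5b and 9.552 and 9.535 for Med1. The other genes above all other mice were Tle4 (1.31), a Groucho corepressor; Ppp1r21 (1.27), a phosphatase regulatory subunit; Hccs (1.01), which attaches haem to cytochrome c; Man1b1 (0.97), a mannosidase of glycoprotein quality control; Gpd1l (0.79); Slc15a4 (0.78), an endolysosomal peptide transporter; Hnrnph1 (0.63), a splicing regulator; and Stk38 (0.58), a kinase. With the mean of all probe sets of a gene, Stk38 turned to -0.12, and Tle4 (0.721), Med1 and Hnrnph1 were not called.

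Ccl27a, a chemokine, had the greatest deficit among the 9 genes below all other mice. Its signal ran from 5.352 to 6.859 (median 6.442) in C3H/HeJ and from 8.532 to 9.835 (median 9.399) elsewhere, a difference of -2.99 ± 0.19 (adjusted p = 2.79e-24) whose size is uncertain because the C3H/HeJ mean of 6.32 lay below the array median. Near-identical copies of this gene exist in the mouse genome, and the probe set may read more than 1 of them. Rbks, ribokinase, which phosphorylates ribose, ran from 6.219 to 7.795 (median 7.206) against 9.03 to 10.28 (median 9.664), a difference of -2.51 ± 0.12 (adjusted p = 2.65e-33). Its second probe set differed by -2 ± 0.19. Copz2, a subunit of the coat of Golgi vesicles, was at 7.12 to 8.332 against 8.812 to 10.34 (difference -2.03 ± 0.12, adjusted p = 7.92e-28). Fig4, a phosphoinositide phosphatase of endosomes and lysosomes, differed by -1.57 ± 0.11 (adjusted p = 2.14e-23).

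The other 5 genes below all other mice had smaller differences. Mup5, a major urinary protein gene of a family with near-identical members, was at 7.379 to 10.01 against 10.06 to 11.59 (difference -1.34 ± 0.20). Vnn3, a vanin pantetheinase, was at 11.05 to 11.77 against 12.08 to 12.89, and differed by -0.95 ± 0.14. Mmut, methylmalonyl-CoA mutase of propionate breakdown, differed by -0.94 ± 0.13 on its brightest probe set, but a dimmer probe set differed by 1.87 ± 0.38, and the mean of its 3 probe sets turned to 0.254. Kbtbd13, an adaptor of a ubiquitin ligase, differed by -1.11, and Creb3, a transcription factor held in the endoplasmic reticulum, by -0.50. With the mean of its probe sets, Creb3 was at -0.286 and was not called.

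**Figure D1:**
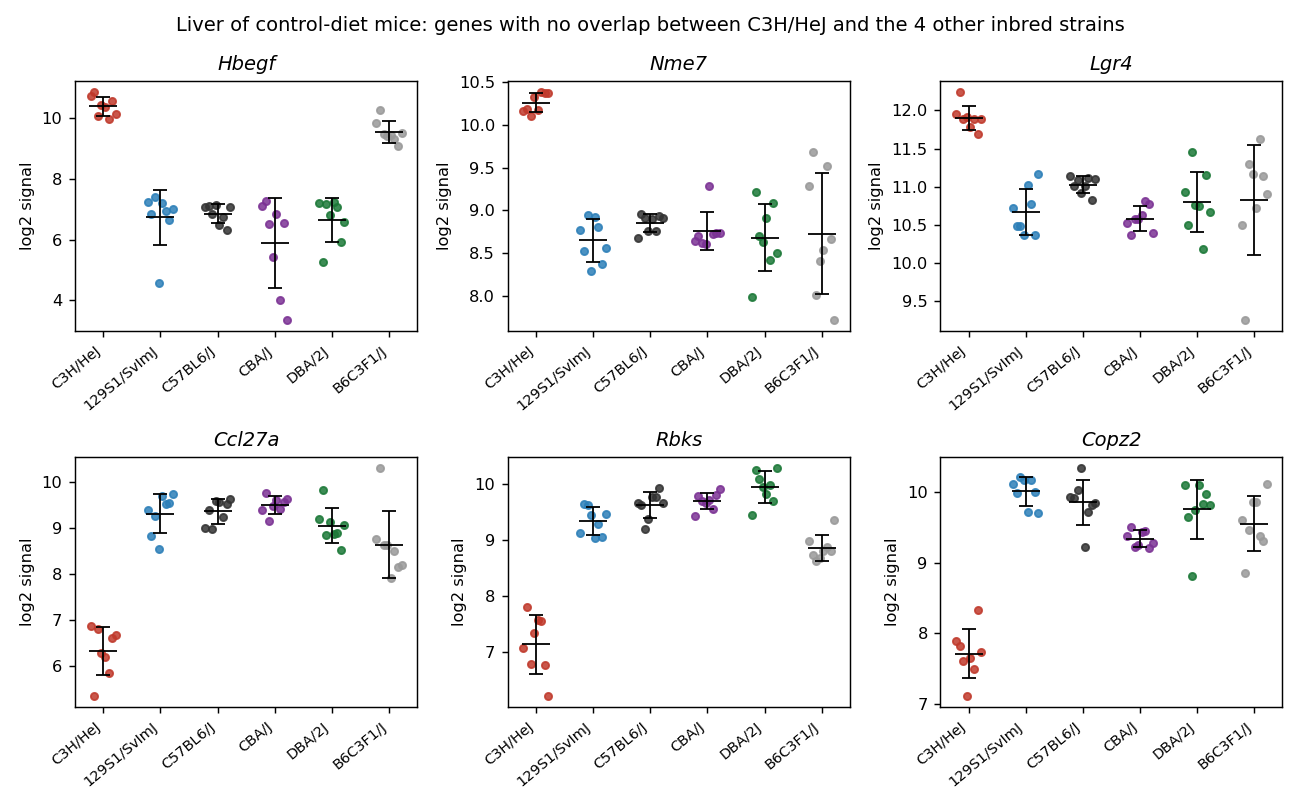
Log2 signal of 6 genes in the liver of control mice, 1 point per mouse, for C3H/HeJ, the 4 other inbred strains and B6C3F1/J (8 mice each); horizontal marks are means and bars are SD. Hbegf, Nme7 and Lgr4 in C3H/HeJ lie above, and Ccl27a, Rbks and Copz2 below, all 32 mice of the other inbreds, while the mean of B6C3F1/J is nearer C3H/HeJ for Hbegf, and its mice are widely spread for Nme7 and Lgr4.

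The B6C3F1/J control mice were not part of the contrast. Their mean lay between those of C3H/HeJ and C57BL6/J in 16 of the 23 genes and was nearer to C57BL6/J in 18. Hbegf was at 9.55 in B6C3F1/J, against 10.4 in C3H/HeJ and 6.85 in C57BL6/J. Kdm5d was at 9.43, near the C3H/HeJ level of 9.64, and these hybrids carry the Y chromosome of their C3H/HeJ sire. Rbks had an intermediate mean of 8.85. Nme7 varied widely in the hybrids, from 7.717 to 9.688 around a mean of 8.73, against 8.678 to 8.961 in C57BL6/J, and so did Lgr4, from 9.252 to 11.62 against 10.83 to 11.14. All 8 hybrids lay below the lowest C3H/HeJ mouse for both genes.

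In most called genes C3H/HeJ stood at the edge of the strains, although with single mice overlapping. The C3H/HeJ mean lay outside the range of the 4 other strain means in 899 of the 1051 higher and 665 of the 768 lower genes (85.5% and 86.6%, against 40.8% of all genes tested), and inside it in 152 and 103. Calls were made on these same means, so a share above that of all genes is built in and is only a description. The nearest strain mean was that of CBA/J in 38% of higher and 39.6% of lower calls, against 30.7% of all genes. Set against each strain singly, with the same 8 C3H/HeJ arrays each time, 984 genes (6.64%) were called against CBA/J, 1899 (12.8%) against C57BL6/J, 2147 (14.5%) against 129S1/SvImJ and 2228 (15%) against DBA/2J.

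In several of the genes with the greatest differences, which were chosen after their values were seen, CBA/J stood near C3H/HeJ. Cyp46a1, cholesterol 24-hydroxylase, an enzyme best known from brain, was at 12.24 to 13.33 (median 12.82) in C3H/HeJ and at 4.701 to 12.37 (median 8.02) in the other mice, a difference of 4.25 ± 0.33 (adjusted p = 2.73e-18). The only overlap was with CBA/J, whose mean was 11.54, while those of 129S1/SvImJ, C57BL6/J and DBA/2J were 7, 8.29 and 7.39. Crym, which encodes a cytosolic thyroid hormone-binding protein, averaged 9.36 in C3H/HeJ, 9.08 in CBA/J and 8.74 in DBA/2J but 4.28 in 129S1/SvImJ and 3.16 in C57BL6/J, a difference of 3.04 ± 0.35 from the mean of the 4. Cyp2b9, a sex-biased drug-metabolizing P450, was at 7.7 to 13.08 (median 11.75) against 1.41 to 10.71 (median 6.985), a difference of 4.16 ± 0.49, with CBA/J again nearest at a mean of 10.13. Its lowest C3H/HeJ value was replicate 2, and the other 7 mice were at 11.4 or more, above all 32 other mice. Lrrc24 (3.51), Epop (3.01), Ifi44l (2.95), Tcf24 (2.62), Tmod4 (2.32) and Mme (2.22), which encodes neprilysin, were also higher in C3H/HeJ, with means above every other strain mean. Of these, only Epop was called against CBA/J singly, and Epop was not called against DBA/2J. Mme averaged 11.33 in C3H/HeJ, 11.17 in CBA/J and 10.91 in C57BL6/J, and was not called against either of the latter strains. The differences of Crym, Lrrc24, Epop, Ifi44l and Tmod4 rest on means of the other strains below the array median. Tmod4, a tropomodulin of skeletal muscle, differed by 2.17 (adjusted p = 0.011) without the 4 arrays of highest muscle signal.

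Dio1, type I deiodinase, which converts thyroxine to the active hormone and is the classical thyroid-responsive enzyme of liver, was low in C3H/HeJ and in CBA/J. Its difference between these 2 strains was not called. C3H/HeJ mice were at 6.884 to 10.42 with a median of 8.548 and a mean of 8.61, CBA/J had a mean of 7.6, and the other 3 strain means were 13.17 in 129S1/SvImJ, 13.03 in C57BL6/J and 13.9 in DBA/2J. Against the 4 strains together Dio1 differed by -3.31 ± 0.31 (adjusted p = 2.42e-14). Cyp17a1, the steroid 17-alpha-hydroxylase, averaged 4.98 in C3H/HeJ and 4.86 in CBA/J against 11.46 in 129S1/SvImJ, 10.08 in C57BL6/J and 7.18 in DBA/2J, a difference of -3.42 ± 0.49. Pparg, the fat-storage nuclear receptor, averaged 3.89 in C3H/HeJ and 4.47 in CBA/J and 7.37 to 8.84 elsewhere, a difference of -3.28 ± 0.41 from a level below the array median. For Ccdc30 (-3.57) CBA/J, at 5.83, was also nearest to C3H/HeJ, at 4.59, with 8.44 to 9.25 elsewhere. Hsd17b13, a lipid droplet dehydrogenase, differed by -3.22 ± 0.17 on 1 probe set and by 3.7 ± 0.32 on another, and the mean of both was 0.241, so its direction in C3H/HeJ is unsettled. Serpina3a (-3.03), Slc15a2 (-2.85) and Gm3740 (-2.6) were lowest in C3H/HeJ, at means below the array median, and Slc1a2, a glutamate transporter of pericentral hepatocytes, at 8.47 against strain means of 9.68 to 11.65, differed by -2.19 ± 0.18.

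**Figure D2:**
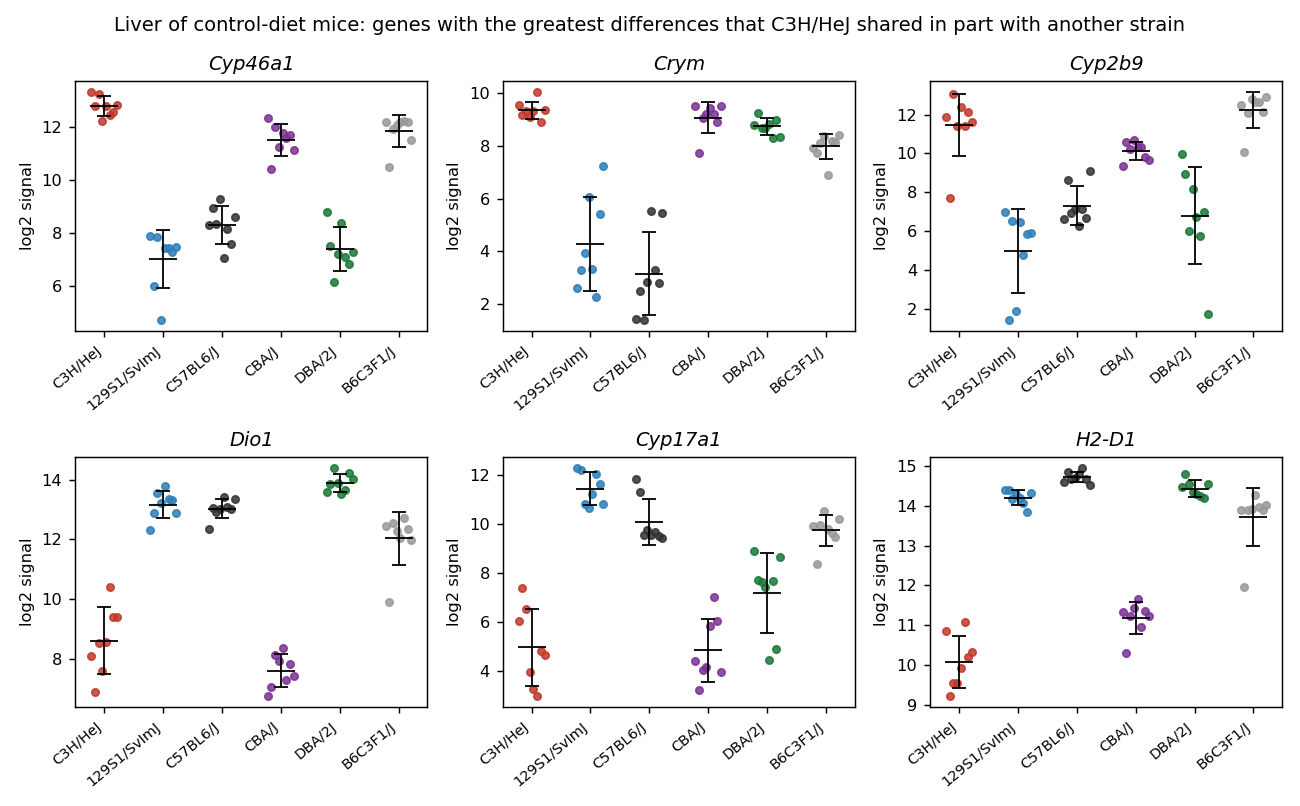
Log2 signal of 6 genes in the liver of control mice, 1 point per mouse, for C3H/HeJ, the 4 other inbred strains and B6C3F1/J (8 mice each), with means and SD. Among the inbreds, CBA/J has the mean nearest to C3H/HeJ for Cyp46a1, Cyp2b9, Crym, Dio1, Cyp17a1 and H2-D1, and for Dio1 the C3H/HeJ and CBA/J means of 8.61 and 7.6 lie below the means of the other 3 inbreds.

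All called genes of the growth hormone and IGF1 axis were higher in C3H/HeJ. Pituitary growth hormone acts on liver through its receptor, JAK2 and STAT5, which induce IGF1, its carrier proteins and the feedback inhibitors of the SOCS family. Of 17 measured members 5 rose, Stat5b among them on 1 of its 2 probe sets, and none fell, against 7.1% and 5.18% of all genes. The median difference was 0.40 against -0.02 over all genes. Socs2, a feedback inhibitor of the receptor, was at 11.18 to 12.5 (median 12.06) in C3H/HeJ and 7.602 to 11.93 (median 10.5) elsewhere, and differed by 1.58 ± 0.26 (adjusted p = 4.83e-06). Onecut1, a hepatocyte factor induced by growth hormone, differed by 1.54 ± 0.36 (adjusted p = 0.00179), Cish, another feedback inhibitor, by 0.94 ± 0.32 (adjusted p = 0.0387), and Igfals, the subunit that stabilizes IGF1 in plasma, by 0.73 ± 0.18 (adjusted p = 0.00319). All 5 C3H/HeJ means lay above every other strain mean. Cish was not called in 5 of 18 alternatives, nor after leaving out C3H/HeJ replicate 1, 2, 3, 5, 7 or 8. Igf1 itself (-0.09), Ghr (0.21) and Jak2 (-0.07) were not called. Growth hormone also sets sex-biased expression in rodent liver, and there the calls went both ways: of 20 male-biased genes 2 rose and 2 fell, and of 18 female-biased genes 3 rose (Cyp2b9, Hao2 at 2.49, from a mean of 4.3 in the other strains, and Slc22a26 at 1.43) and 2 fell (Cyp17a1 and Sult1e1, at -2.55). Both Sult1e1 means, 3.75 and 6.3, lay below the array median. Its mean was highest in 129S1/SvImJ, at 10.16, and it was not called against C57BL6/J, CBA/J or DBA/2J singly. Of 4 measured genes of the major urinary protein list 2 fell, Mup5 and Obp2a (-2.56).

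Promoter stretches of 4 raised genes are shown because their lists had several raised members and their upstream bases hold the letters of a factor of the same pathway. The letters TTCNNNGAA, the form bound by STAT factors, occur in the 250 bases before the start in 7.02% of the 32851 RefSeq promoter windows of the GRCm38.p6 build, CACGTG, the E-box read by clock factors and by the Mlxipl product, in 6.02%, and TTATGTAA, the D-box read by Dbp, Tef and Hlf products, in 0.819%, on either strand. The letters below are those of the reference strain, and the sequence of C3H/HeJ was not analysed here. Capitals mark the motif.
Igfals, chr17:24878147-24878207, plus strand: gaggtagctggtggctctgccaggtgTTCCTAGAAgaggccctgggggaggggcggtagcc
Per3, chr4:151044790-151044896, minus strand: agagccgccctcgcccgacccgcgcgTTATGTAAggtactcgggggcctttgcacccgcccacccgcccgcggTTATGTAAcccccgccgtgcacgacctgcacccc
Tef, chr15:81802520-81802577, plus strand: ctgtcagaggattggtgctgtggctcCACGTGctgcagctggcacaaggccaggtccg
Mlxipl, chr5:135089766-135089823, plus strand: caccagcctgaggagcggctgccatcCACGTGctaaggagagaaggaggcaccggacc
The motif begins 58 bases before the Igfals start, 205 and 158 before that of Per3, 127 before that of Tef and 98 before that of Mlxipl, and further starts of Igfals and Tef also have it. Among called members with a promoter window, the STAT letters were in 1 of 4 growth hormone genes, the E-box in 1 of 9 lipid synthesis genes and 1 of 2 clock genes, and the D-box in 1 of 2 clock genes. Among members not called, these counts were 2 of 12, 3 of 13, 4 of 15 and 0 of 15. A match is a description of the reference letters only.

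Of 19 measured clock genes 3 rose and none fell, against 7.1% and 5.18% of all genes, with a median difference of 0.37. Per3, a repressor in the clock loop, was at 10.03 to 10.95 (median 10.55) in C3H/HeJ against 6.284 to 10.45 (median 8.602), a difference of 1.94 ± 0.20 (adjusted p = 4.05e-13). The strain means of the others spread from 7.27 in 129S1/SvImJ to 9.62 in CBA/J. Tef, an activator of the clock output, differed by 0.48 ± 0.12 (adjusted p = 0.00244), and Per2 by 0.99 ± 0.32 (adjusted p = 0.03), with a call lost in 7 of 18 alternatives and after leaving out C3H/HeJ replicate 2, 6 or 8. The core activators Arntl (0.17) and Clock (-0.06) and the repressor Nr1d1 (0.01) were not called. The labels give no hour of tissue collection by strain, so an hour that differed between strains cannot be told apart from strain.

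Fat-making genes were raised in C3H/HeJ more often than lowered. Of 28 genes that make fatty acids and triglycerides, 9 rose and 2 fell, against 7.1% and 5.18% of all genes, with a median difference of 0.36. Lpin1, a phosphatidate phosphatase on the way to triglyceride, was at 10.6 to 14 (median 12.56) against 6.707 to 13.35 (median 10.23), and differed by 2.16 ± 0.39 (adjusted p = 3.26e-05). Fads1, a fatty acid desaturase, was at 13.76 to 15.02 (median 14.56) against 11.5 to 14.7 (median 13.11), and differed by 1.29 ± 0.23 (adjusted p = 1.72e-05). Srebf1 (1.02) and Mlxipl (1.20), the factors that raise lipogenic genes after insulin and sugar, both rose, with C3H/HeJ means above every other strain mean. Acacb (1.74) and Acaca (1.18), which make malonyl-CoA, Fasn (1.37), fatty acid synthase, and Elovl6 (0.93) and Elovl1 (0.68), which lengthen fatty acids, also rose. For Acaca, Fasn and Elovl6 the CBA/J mean was higher than that of C3H/HeJ, and the calls of Fasn and Elovl6 were lost in 7 and 8 of 18 alternatives, for Fasn also without C3H/HeJ replicate 1, 5, 6 or 8 and for Elovl6 without 6 or 8. Fasn varied among C3H/HeJ mice from 10.41 to 14.23. The members that fell were Elovl3 (-1.31), a male-biased elongase, and Mogat1 (-1.52), a monoacylglycerol acyltransferase. In the 22 cholesterol genes 4 rose (Pmvk 0.90, Scap 0.88, Lss 0.60 and Fdft1 0.57) and Insig2 fell (-0.72), with a median of 0.34.

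Genes of fatty acid oxidation and other targets of the fasting receptor PPAR-alpha went the other way. Of 36 measured, none rose and 8 fell, against 7.1% and 5.18% of all genes, with a median of -0.19. Vnn1, a vanin pantetheinase much used as a readout of this receptor, was at 10.48 to 13.15 (median 12.52) against 12.8 to 14.36 (median 14), and differed by -1.68 ± 0.21 (adjusted p = 8.96e-10). It was lower than in every strain. Crot (-0.88), which moves medium-chain acyl groups to carnitine in peroxisomes, was also below every strain mean. Cyp4a14 (-1.39), an omega-hydroxylase, Acot1 (-1.24), a thioesterase, Ehhadh (-0.89), of peroxisomal oxidation, Acadm (-0.36) and Hadh (-0.43), of mitochondrial oxidation, and Pex11a (-0.50), of peroxisome division, had C3H/HeJ means within the range of the other strains. In all 8 genes 129S1/SvImJ had the highest mean of the 5 strains, and Cyp4a14 stood at 16.38 in 129S1/SvImJ against 13.05 in C3H/HeJ and 11.39 in CBA/J. Averaging without 129S1/SvImJ left 2 members called lower and 1 higher, and leaving out C3H/HeJ replicate 1, 2 or 6 left 5, 5 and 4 lower.

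**Figure D3:**
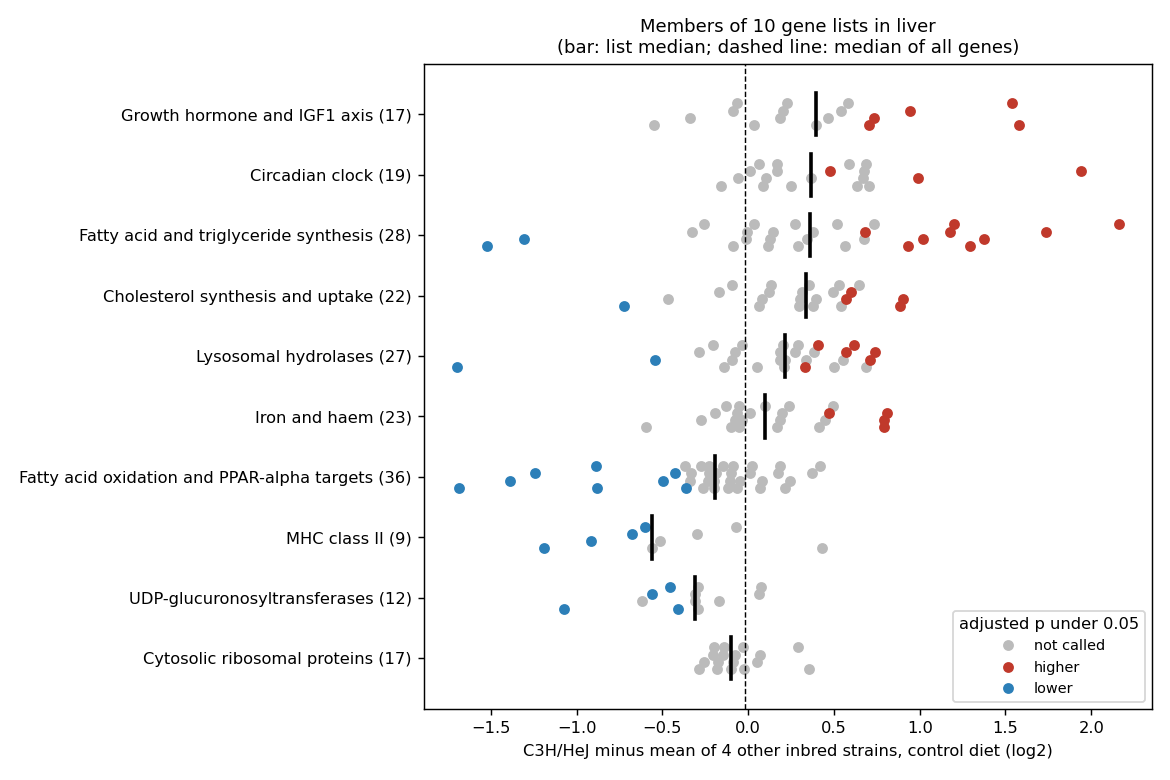
Differences between C3H/HeJ and the mean of the 4 other inbreds on the control diet (log2, horizontal axis) for the measured members of 10 gene lists, 1 point per gene, with the number measured in brackets. Red and blue points passed an adjusted p of 0.05 and grey points did not; black bars are list medians, from 0.40 for the growth hormone and IGF1 axis to -0.56 for MHC class II, and the dashed line is the median of all genes, -0.02.

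Of 54 cytochrome P450 genes 9 rose and 7 fell, with a median of 0.14. Over all genes 7.1% were higher and 5.18% lower, the shares to set beside each count in this paragraph. Besides Cyp46a1, Cyp2b9 and Cyp17a1, the called members included Cyp2g1 (1.91), Cyp2c70 (1.32), the enzyme that makes muricholic bile acids in mice, Cyp39a1 (1.14) of bile acid synthesis, Cyp4a31 (-1.94) and Cyp2e1 (-0.34), the ethanol-inducible pericentral enzyme. Many P450 genes have close relatives that can share probes. Of 12 UDP-glucuronosyltransferase genes, which attach glucuronic acid to drugs and bilirubin, 4 fell (Ugt3a1 -1.07, Ugt2b5 -0.56, Ugt2b35 -0.45 and Ugt2b36 -0.41) and none rose. Of 12 genes of sulfation, Sult1c2 (1.13) and Papss2 (0.73), which makes the sulfate donor, were higher, and the sulfotransferases Sult1e1 and Sult5a1 (-0.62) were lower. Of 28 genes of bile acid synthesis and transport 6 rose and 4 fell. Cyp7a1, the rate-limiting enzyme, averaged 13.16 in C3H/HeJ and 13.48 in the others (difference -0.32 ± 0.21, adjusted p = 0.327), while Abcb4, the phospholipid exporter of bile, fell by 0.94 ± 0.14 on the log2 scale (adjusted p = 6.09e-07).

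On their brightest probe sets, the called class I heavy chains read low in C3H/HeJ and in CBA/J, which shares its haplotype. H2-D1, a class I heavy chain, was at 9.225 to 11.08 (median 10.05) in C3H/HeJ and at 10.3 to 14.95 (median 14.31) elsewhere, with a CBA/J mean of 11.18 and means of 14.21 to 14.73 in the other 3 strains. The difference was -3.56 ± 0.21, and 5 of its 8 probe sets were called lower. Another was higher by 4.73, at 14.56 in C3H/HeJ against 9.83 elsewhere, so the direction of H2-D1 in C3H/HeJ is unsettled. H2-K1 averaged 11.47 in C3H/HeJ and 11.12 in CBA/J against 14.44 to 15.15 elsewhere, a difference of -2.46 ± 0.21, and its 4 probe sets were all lower. Class I genes are among the most variable in sequence between haplotypes, and the part of sequence under the probes in these values was not tested. Of the 13 genes of the class I list 3 fell, with Tap1 (-0.64), and 2 rose, Psmb10 (0.74), a proteasome subunit, and Nlrc5 (0.57), a class I activator. Over all genes 5.18% were lower and 7.1% higher. Of 9 class II genes 4 fell (H2-Aa -1.19, H2-Eb1 -0.92, H2-Ab1 -0.68 and H2-DMa -0.60), against 5.18% of all genes. In all 4 the CBA/J mean was lower still, but none was called against CBA/J singly. Leaving out any of C3H/HeJ replicates 3, 4, 5, 6 or 8 left 2 class II genes called, as did quantile normalization and the averages without 129S1/SvImJ or C57BL6/J. Of the probe sets of H2-Aa, H2-Ab1 and H2-DMa, 2 of 4, 2 of 3 and 1 of 2 were called lower, and none higher. The class II genes are expressed by immune cells rather than hepatocytes. In whole liver fewer such cells, less RNA per cell and haplotype sequence under the probes cannot be told apart.

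Of 19 genes of lipopolysaccharide signalling 2 rose (Ikbkb 0.66 and Irak1 0.30) and 3 fell (Tlr5 -0.78, Nfkbia -0.51 and Irak2 -0.41), although another Nfkbia probe set was called higher. Over all genes 7.1% were higher and 5.18% lower, the shares to set beside each count in this paragraph. Tlr4 itself, whose C3H/HeJ allele carries a known coding mutation, was at 6.46 to 7.304 (median 6.962) in C3H/HeJ and at 4.193 to 8.639 (median 7.47) elsewhere, and differed by -0.40 ± 0.36 (adjusted p = 0.519). Of 32 interferon-stimulated genes 3 rose (Mx2 1.31, Xaf1 1.07 and Oas1a 0.77), close to the 7.1% of all genes, and both Mx2 means, 6.64 and 5.33, were below the array median. For the other two, 129S1/SvImJ had the lowest mean. A second Xaf1 probe set was called lower, and the mean of both was -0.438. Among 22 acute phase genes 1 was called, Saa3 (-0.82). Among 31 complement and coagulation genes 5 rose, led by C2 (0.79), and 2 fell, with F12 at -0.71.

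At other loci known to differ between inbred strains, 6 of 19 measured genes rose and none fell, against 7.1% and 5.18% of all genes. Gusb, beta-glucuronidase, was higher in C3H/HeJ, at 9.672 to 10.79 (median 10.33) against 8.698 to 10.19 (median 9.708), a difference of 0.71 ± 0.13 (adjusted p = 4.95e-05), although the strain is known for low activity of this enzyme. It stood with 5 other lysosomal genes that rose among 27 (Glb1 0.74, Man2b1 0.61, Ids 0.57, Lipa 0.41 and Ctsd 0.33), while Dnase2a (-1.70) and Lamp2 (-0.55) fell. Nnt, the mitochondrial transhydrogenase, differed by 0.71 ± 0.17, with C57BL6/J, which is known for a deletion in the gene, lowest at a mean of 11.15. Averaging without C57BL6/J gave 0.423 for Nnt (adjusted p = 0.103), and it was not called against 129S1/SvImJ or CBA/J singly. Hc, complement C5, differed by 0.49 ± 0.17, with DBA/2J, known to lack the protein, lowest at 12.41 and the other strains at 13.75 to 14.18. The Hc call was lost in 4 of 18 alternatives and after leaving out C3H/HeJ replicate 1, 2, 5, 6, 7 or 8. Glo1 (0.03), Alad (0.24) and Apoa2 (-0.13) were not called. Aox3, an aldehyde oxidase, was at 12.96 in C3H/HeJ, 13.57 in 129S1/SvImJ and 13.05 in C57BL6/J but 10.11 in CBA/J and 10.43 in DBA/2J, a difference of 1.17 ± 0.19. Nnmt, which methylates nicotinamide, was lowest in C3H/HeJ at 8.01 and highest in C57BL6/J at 11.69 (difference -1.38 ± 0.31). Its difference was not called against any of the other 3 strains singly, and averaging without C57BL6/J gave -0.617 (adjusted p = 0.213).

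Of 23 iron and haem genes 4 rose and none fell, against 7.1% and 5.18% of all genes. They were Slc39a14 (0.81) and Slc11a2 (0.79), metal transporters, Tfrc (0.79), the transferrin receptor, and Urod (0.47), of haem synthesis. Slc11a2 was called on 1 of 4 probe sets and Tfrc on 1 of 3. With the mean of their probe sets, at 0.263 and 0.363, neither was called. In 28 genes of glucose metabolism 4 rose, with Gbe1 (1.06), glycogen branching enzyme, and Pklr (0.88), liver pyruvate kinase, in front, and Ldha fell (-0.75). Of 36 genes of amino acid breakdown 2 rose and 2 fell, with Kmo of the kynurenine pathway at -0.99 and Csad, the taurine-forming decarboxylase, at -1.30. None of 17 cytosolic ribosomal protein genes was called by limma, and 1 of each direction was called among 32 genes of oxidative phosphorylation.

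Hepatocyte markers were high in all strains. Albumin averaged 16.42 in C3H/HeJ and 16.61 in the others (Alb, adjusted p = 0.53). Among hepatocyte markers 2 of 17 were called, Foxa1 (0.66) and Cebpa (0.49), against 12.3% of all genes. The Foxa1 call was lost without C3H/HeJ replicate 1, 2, 5 or 7, and that of Cebpa without 2, 3, 5, 7 or 8. The mean log2 signal of 18 Kupffer cell markers ran from 9.26 to 10.06 in C3H/HeJ and from 8.71 to 11 in the other mice, with Clec4f (0.30) and Vsig4 (0.16) not called, Cd68 higher (0.77) and Cd163 (-0.95) and Adgre1 (-0.49) lower, the last not called without C3H/HeJ replicate 1, 2, 3, 4, 6 or 8. The mean of lymphocyte and neutrophil markers was 5.94 against 5.97, below the array median, and Cd3e was at 5.53 against 5.42. Of 15 endothelial markers 3 rose, with Tie1 (1.05) and Stab2 (0.58), and Fcgr2b fell (-0.42), against 7.1% and 5.18% of all genes. The mean of the endothelial list differed by 0.19 (adjusted p = 0.087 by two-sided permutation of 40 arrays). The mean of adipocyte markers, which include Pparg, differed by -0.60 (adjusted p = 0.087), with Adipoq at 4.73 against 4.88. The skeletal muscle mean ran from 4.44 to 11.99 in C3H/HeJ and from 3.87 to 9.62 elsewhere, a difference of 1.08 (adjusted p = 0.27) with replicates 2 and 8 highest, and none of its 10 genes was called. The part of these levels in the gene differences above was not tested, apart from leaving out the 4 arrays of highest muscle signal.

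The calorie-restricted mice give the same strain contrast in other animals. There 1731 genes (11.7%) were higher and 1671 (11.3%) lower in C3H/HeJ. Of the 1051 genes higher in control mice, 644 were higher again, which is 61.3% of the control list and 37.2% of the restricted list, and none was lower. Of the 768 lower genes, 391 were lower again (50.9% and 23.4%) and 3 were higher, namely Ehhadh, Hsdl2 and 2010003K11Rik. All 23 genes whose control groups did not overlap kept their sign in restricted mice, 22 were called in the same direction, and 12 again had no overlap. The exception was Slc15a4, at 0.27 (adjusted p = 0.274). Hbegf (3.67), Cyp46a1 (4.25), Dio1 (-3.30), Rbks (-2.36) and Ccl27a (-2.79) had differences close to those in control mice.

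**Figure D4:**
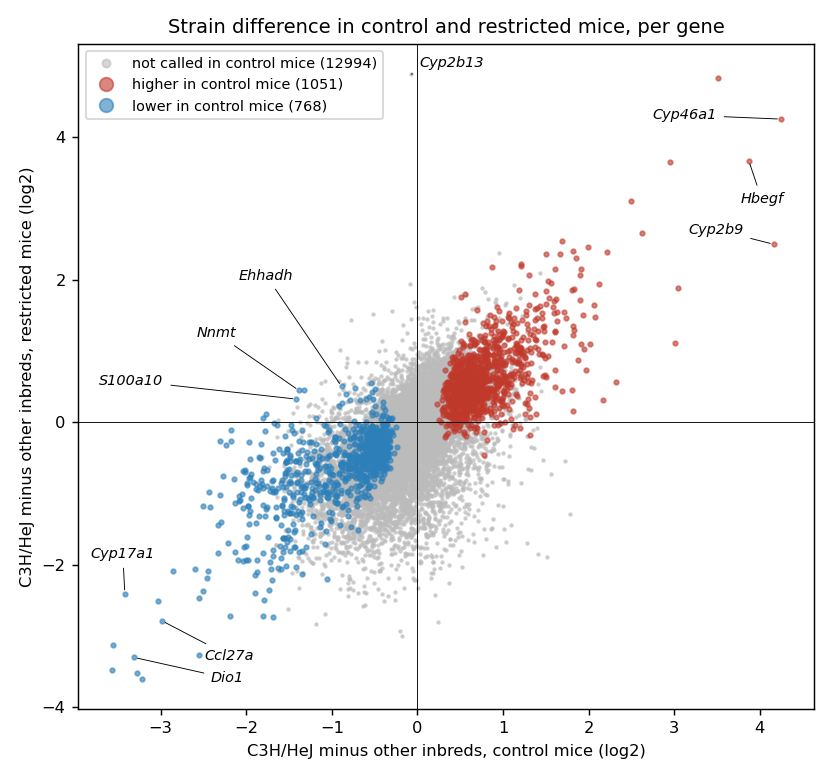
Difference between C3H/HeJ and the mean of the 4 other inbreds in control mice (horizontal axis) and in calorie-restricted mice (vertical axis), both log2, with 1 point per gene for 14813 genes, red and blue where called higher or lower in control mice. Hbegf and Cyp46a1 lie high on both axes, Dio1 and Ccl27a low on both, and Cyp2b13 is near 0 in control mice and at 4.88 in restricted mice.

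The strain difference itself changed with diet in 57 genes (0.385%). Cyp2b13, a relative of Cyp2b9, was at 1.741 to 8.138 (median 4.645) in C3H/HeJ control mice and 2.033 to 7.259 (median 4.375) in the other controls, but at 8.972 to 12.88 (median 10.75) in restricted C3H/HeJ mice against 3.31 to 8.318 (median 5.963), with no overlap. The change in the strain difference was 4.96 (adjusted p = 4.1e-05). Ehhadh went from -0.89 to 0.50 (change 1.39, adjusted p = 0.00117), as its level in the other strains was 14.02 in control and 12.73 in restricted mice and that of C3H/HeJ was 13.13 and 13.23. S100a10, a calcium-binding adaptor, went from -1.42 to 0.32 (change 1.74, adjusted p = 0.00117). Cyp2c70 (1.32 to 0.07) and Cyp39a1 (1.14 to -0.04) changed in the opposite direction. Ntrk2, a neurotrophin receptor, went from -0.18 to 1.15, Rdh16, a retinol dehydrogenase, from 0.56 to 1.80, and Tfpi2, a protease inhibitor, from -0.36 to 0.84, all past the threshold for the change. The count of 57 was 19 with arrays centred on the 75th percentile and 26 without the 4 arrays of highest muscle signal. In restricted mice 11.7% of all genes were higher and 11.3% lower, the shares to set beside the list counts that follow. The fatty acid oxidation list there had 7 genes higher and 6 lower with a median of 0.04, and 2 of its 8 control calls were made again. The clock list had 3 higher and 4 lower (1 of 3 calls made again), the growth hormone list 4 higher and 2 lower (4 of 5), and the lipid synthesis list 10 higher and 1 lower (6 of 11). The MHC class II list had none higher and 1 lower (1 of 4), with H2-Aa at -0.30, H2-Eb1 at -0.22 and H2-Ab1 at 0.32. Among single genes, the raised Srebf1 and Lpin1 had differences of 0.00 and 0.31 in restricted mice, and Cish -0.04, while Fasn was at 1.79 and Socs2 at 1.62.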

How the data were processed

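Liver RNA of 96 mice was measured on Affymetrix mouse genome arrays, 1 mouse per array. The authors deposited linear intensity values made with MAS5, per the submitters' processing notes, without stated version or settings, and each array has a 2% trimmed mean of 500. They were turned to log2 in R 4.3.3. Of 45101 probe sets, 64 controls were left out, and a probe set was kept at or above the array median in at least 8 arrays. A gene was its kept probe set of highest mean. The platform annotation named 34958 probe sets with 1 symbol, 932 with several and 9211 with none; 34754 matched the RefSeq gene table.

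A mean for each of 12 groups was fitted with limma 3.58.1 (lmFit, eBayes with trend and robust variances), with Benjamini-Hochberg adjustment over 14813 genes and calls at an adjusted p of 0.05. The fit was checked on simulated data. Array measures were tested with 100000 permutations, adjusted over 13 measures. The number of arrays limits precision. Samples were grouped by titles. The titles do not say that replicate numbers pair mice. Same-numbered mice of different strains correlated at a median of 0.01 in their deviations. Correlations above 0.1 were found in 12 of 80 such pairs and in 35 of 560 pairs of different numbers. Whether same-numbered mice shared any handling was not tested.

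The comparison and the 46 gene lists were chosen with earlier results of these data known. Named genes were those without overlap (23, under a limit of 15 each way), up to 3 called members of each list by p, a set of known strain loci, 6 genes of smallest p for the change with diet, and, after the values were seen, the 12 greatest differences each way and other called members of the lists described. Alternatives covered normalization, offset, filters, probe sets, weights, samples, strains and a fold minimum.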

Additional observations from a re-analysis of the deposited data

Results flagged for a closer look

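In the C3H/HeJ control group, 16 of 207 named genes and array measures had a mouse far from the other 7, where chance gives about 1 in 20. Replicate 6 was that mouse in 8 genes. In it Abcb4 was at 11.84 against 12.4 to 12.85 in the others, Slc39a14 at 11.2 against 11.83 to 12.37, Acadm at 13.98 against 14.38 to 14.6 and Igfals at 11.62 against 12.15 to 12.53. It was high in Mgst3, at 10.69 against 9.39 to 9.85, Gstm3, at 13.82 against 9.3 to 11.42, Gbe1, at 12.76 against 11.42 to 11.96, and Lss, at 11.59 against 8.6 to 9.89. Replicate 2 was low in Mup5, at 7.38 against 9.19 to 10.01, in Cyp2b9, at 7.7 against 11.4 to 13.08, and in Pex11a, at 11.54 against 12.31 to 12.88. Glo1 in replicate 7 was at 15.23 against 14.9 to 15.04, and Nr1d1 in replicate 4 at 5.14 against 7.63 to 9.19. The Gapdh 3' to 5' difference of replicate 8 was 0.25 against -0.43 to -0.34, and its beta-actin difference was 1.56 against 0.64 to 1.03. The mean of erythroid markers was 8 in replicate 1 against 7.13 to 7.5.

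In 14 named genes the strain difference changed between control and restricted mice by a test of the change itself, upward in 12 and downward in 2. The upward changes were 4.96 for Cyp2b13 (adjusted p = 4.1e-05), 1.39 for Ehhadh (0.00117), 1.74 for S100a10 (0.00117), 1.33 for Ntrk2 (0.00168), 1.25 for Rdh16 (0.00351), 1.21 for Tfpi2 (0.00351), 1.1 for 2010003K11Rik (0.0169), 1.15 for Crot (0.0206), 1.21 for Insig2 (0.0269), 1.83 for Nnmt (0.0325), 0.97 for Hsdl2 (0.047) and 1.22 for Cyp4a31 (0.0488). The downward changes were -1.25 for Cyp2c70 (0.00351) and -1.18 for Cyp39a1 (0.0309).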

How the results depend on the processing

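Of 156 named genes that were called, 85 kept direction and call under every alternative that tested them, leave-one-out fits aside, 68 lost the call in at least 1, and 4 changed sign, all when probe sets were averaged within genes: Stk38 (-0.12), Mmut (0.254), Hsd17b13 (0.241) and Xaf1 (-0.438). Among 340 genes with several called probe sets, 44 (12.9%) had calls in opposite directions. Counts of control calls, in all, higher and lower, were 1166, 655 and 511 with quantile normalization, 4080, 2284 and 1796 with arrayWeights, 3008, 1658 and 1350 with only the 5 inbred control groups, and 1152, 648 and 504 at 1.5-fold or more. The alternatives added after seeing the data gave 2884, 1648 and 1236 without the 2 arrays with a median above 8, and 1062, 582 and 480 without the 4 arrays of highest muscle marker mean. The 2 arrays with a median above 8 lie outside the 40 arrays of the contrast, whose medians were at most 6.97. They entered the control calls through the shared spread. Centring on the 75th percentile gave 682 higher. Leaving out each C3H/HeJ control replicate gave 1383 to 1832 calls, 765 to 1084 higher and 594 to 748 lower. With the replicate number as a block, 1110 were higher and 786 lower, and no count changed by more than 1.5 times. Restricted calls moved to 1074 higher with the array median as a covariate, to 5160 in all and 2576 lower with arrayWeights, and to 2664, 1041, 1089 and 873 lower when averaging without C57BL6/J, when averaging without CBA/J, with only genes above the mean array median, and with quantile normalization. Genes whose strain difference changed with diet numbered 19 with 75th percentile centring, 36 with quantile normalization, 685 with arrayWeights, 88 without DBA/2J, 204 without the 2 high-median arrays and 26 without the 4 muscle arrays. Lower calls among fatty acid oxidation genes were 5 with 75th percentile centring and without the muscle arrays, 2 without 129S1/SvImJ, and 4 to 8 leaving out each replicate; 1 was higher with arrayWeights and without 129S1/SvImJ. Lower class II calls were 2 with quantile normalization, without 129S1/SvImJ, without C57BL6/J and without the muscle arrays, and 2 to 4 leaving out each replicate. In the growth hormone list arrayWeights gave 8 higher, and 1 was lower with the covariate, without CBA/J and with only the 5 control groups. The causes of these shifts were not tested. Signals below the array median limit the sizes of many lower calls.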
